A study of Mus musculus with 6 samples.

Results

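The mesothelial and epicardial markers were a set of 10 genes known from the outer lining of the heart and of other organs: Wt1, Msln, Upk3b, Upk1b, Lrrn4, Krt19, Krt8, Krt18, Aldh1a2 and Tbx18. All 10 were found by gene identifier among the 38293 genes of the count table, and 9 of them passed the filter on low counts that left 14746 genes for testing. The gene that did not pass was Krt8. The question was whether these genes differed between genotypes, and whether they marked surface tissue in single libraries.

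RNA-seq was performed on heart tissue of 3 mice labelled WT and 3 Zeb2 cKO mice, collected 14 days after permanent occlusion of the LAD, the artery that supplies the front wall of the left ventricle. The WT mice were Zeb2 fl/fl, so the controls carried the floxed alleles too. Zeb2 cKO mice carried the same alleles and a Cre recombinase under the murine Myh6 promoter (αMHC-Cre), which deletes Zeb2 in cardiomyocytes. The RNA was that of whole tissue, surface cells included where they were taken. All mice were C57BL/6J (backcrossed) males of 8 to 10 weeks at surgery. No sham-operated heart was among the libraries used here. The labels place the tissue in the border region of the infarct, whereas the methods of the study place it in the remote zone.

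The heart is covered by the epicardium, a thin sheet of mesothelium, and a like sheet lines the pericardium, the pleura and the peritoneum. Mesothelial cells hold simple-epithelial keratins and carry mesothelin and uroplakins on their surface. In the embryo the epicardium is marked by Wt1 and Tbx18 and makes retinoic acid through Aldh1a2, and after infarction it turns these genes on again and gives rise to cells below the surface. None of these markers is restricted to the epicardium, since Tbx18 is also used in mural cells of vessels, Wt1 in some endothelial cells and Krt8 with Krt18 in other epithelia and in stressed cardiomyocytes.

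ZEB2 is a zinc-finger repressor that binds E-boxes in the promoters of epithelial genes, so the stretch before the start of each member was searched for this motif (CAGGTG or its reverse complement CACCTG). TEAD factors, which act with YAP in epicardial cells, were searched for by GGAATG or CATTCC. Promoters from RefSeq (GRCm38.p6) matched 6 of the 10 members, all but Wt1, Msln, Upk1b and Krt19, and the 250 bases before the RefSeq start were read. The E-box occurred in 17.2% and the TEAD motif in 12.6% of 32817 start sites in windows of the same length. Krt8, Krt18 and Aldh1a2 each held 1 E-box, at 111, 214 and 11 bases before the RefSeq start. Upk3b and Lrrn4 each held 1 TEAD motif, at 241 and 196 bases before it, and Tbx18 held neither. In Lrrn4, Krt8 and Krt18 the Gencode gene begins upstream of the RefSeq start. Their motifs are therefore nearer to the Gencode start than these distances, and the E-box of Krt8 lies inside the Gencode gene. Shown first are Upk3b and Lrrn4, which lead in the same libraries as Msln, Upk1b and Krt19, whose promoters were not matched, with the TEAD motif in capitals, and then Krt18 and Aldh1a2, with the E-box in capitals. Each is written 5′ to 3′ in the direction of transcription and ends where the gene begins in the Gencode annotation. A match is a run of letters and not evidence of binding.
Upk3b, chr5:136038246-136038495, plus strand: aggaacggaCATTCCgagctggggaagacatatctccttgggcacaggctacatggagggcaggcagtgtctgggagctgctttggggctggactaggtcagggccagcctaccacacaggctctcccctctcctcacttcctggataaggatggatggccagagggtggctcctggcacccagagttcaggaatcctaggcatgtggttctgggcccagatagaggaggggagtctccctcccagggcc
Lrrn4, chr2:132880892-132881112, minus strand: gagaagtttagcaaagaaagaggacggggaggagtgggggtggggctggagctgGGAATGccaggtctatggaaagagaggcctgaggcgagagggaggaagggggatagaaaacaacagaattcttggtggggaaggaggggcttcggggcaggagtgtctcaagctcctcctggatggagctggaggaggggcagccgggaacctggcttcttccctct
Krt18, chr15:102027966-102028179, plus strand: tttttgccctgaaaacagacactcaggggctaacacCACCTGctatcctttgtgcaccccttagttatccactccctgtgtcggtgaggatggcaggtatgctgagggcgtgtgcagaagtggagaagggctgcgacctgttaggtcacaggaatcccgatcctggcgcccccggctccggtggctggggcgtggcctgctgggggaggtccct
Aldh1a2, chr9:71215539-71215788, plus strand: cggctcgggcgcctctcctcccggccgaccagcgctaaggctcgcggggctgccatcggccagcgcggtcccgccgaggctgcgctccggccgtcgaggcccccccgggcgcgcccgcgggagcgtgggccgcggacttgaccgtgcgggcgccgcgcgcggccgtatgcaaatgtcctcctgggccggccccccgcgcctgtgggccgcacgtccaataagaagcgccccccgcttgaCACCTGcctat

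Between 37288174 and 51136331 counts were obtained per library, of which 14301225 to 19024394 lay outside the mitochondrially encoded genes. Levels are given as CPM, the counts of a gene scaled to the library's total after TMM normalization. Leaving mitochondrially encoded genes out raised each member's level 2.77-fold and left its highest library the same in 10 of 10 members. Zeb2 itself was at 61.3, 116 and 71.9 CPM in WT replicates 1, 2 and 3 and at 59.5, 72.6 and 66.5 CPM in Zeb2 cKO replicates 1, 2 and 3, with a log2 fold change of -0.33 (SE 0.25, edgeR adjusted p = 0.957, by its quasi-likelihood test and the Benjamini-Hochberg method). The groups overlapped for Zeb2, and the log2 fold change was -0.0058 without WT replicate 2. The counts of Zeb2 therefore do not check the genotype labels. WT replicate 2 stood apart from the rest of its group. A chi-square statistic of its counts per degree of freedom was 185 against WT replicate 1 and 157 against WT replicate 3, whereas other pairs within a group lay between 16.9 and 33.6. All values below are in the order WT replicates 1, 2 and 3, then Zeb2 cKO replicates 1, 2 and 3, and a log2 fold change is Zeb2 cKO relative to WT.

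Msln (ENSMUSG00000063011, chromosome 17, 25748613 to 25754378, minus strand, GRCm38) encodes the precursor of mesothelin, a surface glycoprotein of mesothelium. Msln was at 0.770, 3.53 and 0.625 CPM in WT and at 1.40, 2.24 and 1.04 CPM in Zeb2 cKO hearts, from 29, 155 and 24 and from 70, 97 and 56 counts. WT replicate 2 was highest and the other WT replicates were lowest, so the WT libraries enclosed all 3 Zeb2 cKO libraries. The log2 fold change was -0.091 (SE 0.68, 95% interval -1.70 to 1.52, edgeR adjusted p = 0.991). Counting error alone gave 3.00 to 4.13 CPM in WT replicate 2 and 0.516 to 1.11 CPM in WT replicate 1 (exact Poisson, 95%), so these WT mice differed by more than counting error.

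Upk3b and Upk1b encode uroplakins, membrane proteins first known from the bladder lining. Upk3b (ENSMUSG00000042985, chromosome 5, 136038496 to 136046487, plus strand) was at 0.770, 1.82 and 0.885 CPM in WT and at 1.38, 2.17 and 0.912 CPM in Zeb2 cKO hearts, with Zeb2 cKO replicate 2 highest and WT replicate 2 next. Upk1b (ENSMUSG00000049436, chromosome 16, 38773184 to 38800328, minus strand) was at 0.239, 1.16 and 0.312 CPM in WT and at 0.600, 0.830 and 0.316 CPM in Zeb2 cKO hearts, with WT replicate 2 highest and Zeb2 cKO replicate 2 next. The third to sixth places were taken by the same libraries in both genes, namely Zeb2 cKO replicate 1, Zeb2 cKO replicate 3, WT replicate 3 and WT replicate 1. The log2 fold change was 0.34 (SE 0.44, 95% interval -0.71 to 1.39, edgeR adjusted p = 0.957) for Upk3b. For Upk1b it was -0.0035 (SE 0.63, 95% interval -1.51 to 1.5, edgeR adjusted p = 0.999).

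Lrrn4 (ENSMUSG00000043110, chromosome 2, 132868305 to 132880891, minus strand), a leucine-rich repeat membrane protein of mesothelium, was at 0.239, 1.60 and 0.234 CPM in WT and at 0.600, 1.18 and 0.205 CPM in Zeb2 cKO hearts. WT replicate 2 and Zeb2 cKO replicate 2 were highest, and WT replicates 1 and 3 and Zeb2 cKO replicate 3 held only 9, 9 and 11 counts. Its log2 fold change was -0.10 (SE 0.89, 95% interval -2.21 to 2.01, edgeR adjusted p = 0.992), the widest interval among the members tested. Its promoter, shown above, holds the TEAD motif, as does that of Upk3b.

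Krt19 (ENSMUSG00000020911, chromosome 11, 100140810 to 100148665, minus strand), a type I keratin of simple epithelia, was near the limit of detection. It was at 0.0797, 0.524 and 0.104 CPM in WT, from 3, 23 and 4 counts, and at 0.320, 0.346 and 0.279 CPM in Zeb2 cKO hearts, from 16, 15 and 15 counts. The Zeb2 cKO libraries were close to each other and lay above WT replicates 1 and 3 and below WT replicate 2. Between genotypes Krt19 had a log2 fold change of 0.37 (SE 0.67, 95% interval -1.21 to 1.95, edgeR adjusted p = 0.957).

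**Figure D1:**
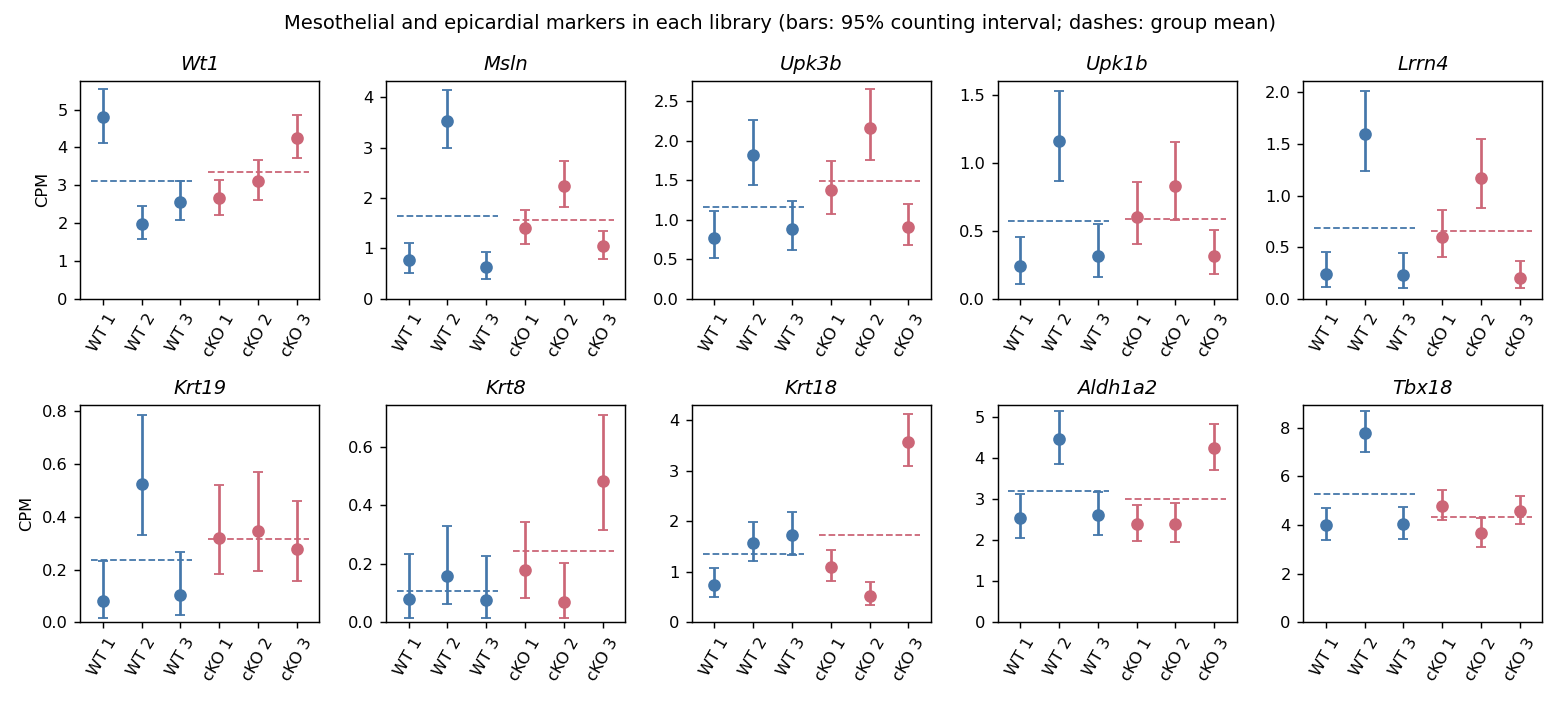
Level of each of the 10 markers in each library, in CPM on linear axes that start at 0. Points are single libraries (WT in blue, Zeb2 cKO in red), bars are exact 95% Poisson intervals of the counts and dashed lines are group means of 3; Msln, Upk1b, Lrrn4 and Krt19 were highest in WT replicate 2, Krt18 and Krt8 in Zeb2 cKO replicate 3, and Wt1 in WT replicate 1.

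Msln, Upk3b, Upk1b, Lrrn4 and Krt19 shared their leading libraries. In each of these 5 genes the 3 highest libraries were WT replicate 2, Zeb2 cKO replicate 2 and Zeb2 cKO replicate 1. This arrangement was seen in 5 of 10 members and in 5.55% of all tested genes. Their levels summed to 2.10, 8.64 and 2.16 CPM in WT and to 4.30, 6.75 and 2.75 CPM in Zeb2 cKO hearts. Of what the 6 libraries held together, WT replicate 2 held 32.3%, Zeb2 cKO replicate 2 held 25.3% and Zeb2 cKO replicate 1 held 16.1%, whereas the remaining libraries held 7.85% to 10.3%. All 10 members summed to 14.28, 24.61 and 13.15 CPM in WT and to 15.43, 16.52 and 19.89 CPM in Zeb2 cKO hearts. Over all members Zeb2 cKO replicate 3 was thus second. With Wt1 added to the 5 genes, the sums were 6.90, 10.62 and 4.71 CPM in WT and 6.96, 9.86 and 7.02 CPM in Zeb2 cKO hearts. These 5 genes were set apart from Wt1, and the arrangement was named, after the values had been seen. The share of 5.55% is therefore no test of it. In bulk tissue, fewer cells of a type and less RNA per cell cannot be told apart.

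Wt1 (ENSMUSG00000016458, chromosome 2, 105126529 to 105173616, plus strand), the zinc-finger transcription factor most used to trace the epicardium, followed another order. Wt1 was at 4.80, 1.98 and 2.55 CPM in WT and at 2.66, 3.11 and 4.26 CPM in Zeb2 cKO hearts, from 181, 87 and 98 and from 133, 135 and 229 counts. It was lowest in WT replicate 2, the library where Msln was highest, and highest in WT replicate 1, where Upk3b, Upk1b and Krt19 were lowest. Between genotypes Wt1 had a log2 fold change of 0.11 (SE 0.36, 95% interval -0.74 to 0.96, edgeR adjusted p = 0.978). The ratio of Msln to Wt1 counts was 0.160, 1.78 and 0.245 in WT and 0.526, 0.718 and 0.244 in Zeb2 cKO hearts, so the markers did not keep 1 proportion among the hearts.

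Endothelial cells, in which Wt1 can be expressed, also gave their lowest share in WT replicate 2. A list of 8 endothelial genes held 11.4% of its 6-library sum in WT replicate 2 and 15.4% to 18.9% in the other libraries. The 3 highest libraries were WT replicate 1, Zeb2 cKO replicate 2 and Zeb2 cKO replicate 3 for the endothelial list as well as for Wt1. They were also the 3 highest for a list of 8 mural genes. That list summed to 1021, 683 and 919.5 CPM in WT and to 935.4, 1034 and 1014 CPM in Zeb2 cKO hearts. Cardiomyocyte genes too had their lowest share in WT replicate 2, at 9.59%. The likeness to Wt1 was thus not particular to endothelial genes, of which Tek was highest in WT replicate 2. The part of endothelial cells in the Wt1 level was not tested.

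Krt8 and Krt18 encode partner keratins that pair into the filaments of simple epithelia. Krt18 (ENSMUSG00000023043, chromosome 15, 102028180 to 102032027, plus strand) was at 0.743, 1.57 and 1.72 CPM in WT and at 1.10, 0.530 and 3.57 CPM in Zeb2 cKO hearts, from 28, 69 and 66 and from 55, 23 and 192 counts. Zeb2 cKO replicate 3 was 2.08-fold above the next library, and Zeb2 cKO replicate 2, high in the uroplakins and Msln, was lowest. The log2 fold change was 0.37 (SE 0.68, 95% interval -1.25 to 1.99, edgeR adjusted p = 0.957), and it was -0.72 without Zeb2 cKO replicate 3.

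Krt8 (ENSMUSG00000049382, chromosome 15, 101996698 to 102004482, minus strand) held 3, 7 and 3 counts in WT and 9, 3 and 26 counts in Zeb2 cKO hearts, or 0.0797, 0.160 and 0.0781 CPM and 0.180, 0.0691 and 0.484 CPM. It too was highest in Zeb2 cKO replicate 3, 2.69-fold above the next library, and lowest in Zeb2 cKO replicate 2. Without the filter on low counts its log2 fold change was 1.21 (edgeR adjusted p = 0.858). Of the longest Krt8 transcript, 51.8% is at least 95% identical to Krt8-ps and Gm36026, the latter overlapping Krt8 on the opposite strand, so its counts are uncertain. Counts of Krt18 exceeded those of Krt8 between 6.11-fold and 22.0-fold.

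A lead of at least 2-fold over the next library was seen in 6.20% of all tested genes and, among the members tested, in Krt18. Krt8, which was not among the tested genes, had such a lead too. Neither keratin shared its order with the 5 genes above. The ratio of Msln to Krt18 counts was 1.04, 2.25 and 0.364 in WT and 1.27, 4.22 and 0.292 in Zeb2 cKO hearts, highest in Zeb2 cKO replicate 2 and lowest in Zeb2 cKO replicate 3.

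Aldh1a2 and Tbx18, the markers of the developing and the reactivated epicardium, had the smallest ratios of highest to lowest library. Aldh1a2 (ENSMUSG00000013584, chromosome 9, 71215789 to 71296243, plus strand), which makes retinoic acid from retinaldehyde, was at 2.55, 4.47 and 2.60 CPM in WT and at 2.40, 2.40 and 4.24 CPM in Zeb2 cKO hearts. Tbx18 (ENSMUSG00000032419, chromosome 9, 87702800 to 87731260, minus strand), a T-box transcription factor, was at 4.01, 7.79 and 4.04 CPM in WT and at 4.80, 3.66 and 4.58 CPM in Zeb2 cKO hearts. Both were highest in WT replicate 2, Aldh1a2 was nearly as high in Zeb2 cKO replicate 3, and the groups overlapped in both. The log2 fold change was -0.09 for Aldh1a2 (SE 0.33, 95% interval -0.87 to 0.69, edgeR adjusted p = 0.98) and -0.28 for Tbx18 (SE 0.29, 95% interval -0.97 to 0.41, edgeR adjusted p = 0.957). A stretch of 21.6% of the longest Tbx18 transcript is shared at 95% identity or more with other genes, among them D030062O11Rik, which overlaps Tbx18 on the opposite strand.

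No difference between genotypes passed the test in any member. Adjusted by Benjamini-Hochberg over all tested genes, the quasi-likelihood test of edgeR called 0 of the 9 members, where it called 0% of all genes and 280 genes (1.90%) had an unadjusted p under 0.05, of which 0 were members. DESeq2 called 2 genes in all, neither of them a member. WT and Zeb2 cKO libraries overlapped in 10 of 10 members, where all Zeb2 cKO libraries lay below all WT libraries in 2.97% of tested genes and above them in 3.39%. Exact permutation tests (two-sided, 3 mice against 3, smallest possible p = 0.1) gave p between 0.4 and 1 for the 10 members.

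Past a log2 fold change of 0.2 in either direction, Upk3b, Krt19 and Krt18 were higher, 3 of 9 members beside 15.9% of all genes, and Tbx18 was lower, 1 of 9 beside 22.6%. The median log2 fold change was -0.0035 for the 9 members and -0.0069 for all genes. The intervals do not exclude sizeable differences, since the 95% interval of 5 members ran past 1 in both directions.

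These values depended on single libraries. Leaving out WT replicate 1 or WT replicate 3 gave 5 members under -0.2 and 1 over 0.2. Wt1 moved most without WT replicate 1, to 0.56, and Krt18 without Zeb2 cKO replicate 3, to -0.72. The median and the values of Msln, Lrrn4, Upk1b, Upk3b and Krt19 moved most without WT replicate 2. Without it, Msln had a log2 fold change of 1.15 (95% interval 0.28 to 2.02), Lrrn4 of 1.45 (-0.25 to 3.14), Upk1b of 1.06 (-0.081 to 2.19), Upk3b of 0.83 (-0.068 to 1.74) and Krt19 of 1.74 (0.70 to 2.78). Wt1 had one of -0.13 (-0.84 to 0.58), Krt18 of 0.51, Tbx18 of 0.12 and Aldh1a2 of 0.23. The median of the 9 members was 0.83, beside 0.0025 for all genes. A log2 fold change over 0.2 was then reached by 7 of 9 members beside 14.2% of genes, and one under -0.2 by 0 members beside 11.7%. All 3 Zeb2 cKO libraries then lay above both WT libraries in Msln, Upk3b, Upk1b and Krt19, 4 of 10 members beside 8.07% of genes. In Upk1b, Zeb2 cKO replicate 3 and WT replicate 3 were at 0.3164 and 0.3125 CPM, from 17 and 12 counts. In Upk3b they were at 0.912 and 0.885 CPM, so both separations lay within counting error. By edgeR, 2 members, Krt19 and Msln, had an unadjusted p under 0.05 (0.0052 and 0.0165), beside 2.63% of genes. WT replicate 2 was the highest library in both, so leaving it out had to raise their log2 fold changes. These p-values therefore cannot decide on a difference between genotypes. After Benjamini-Hochberg adjustment 0 members and 0% of genes passed, with an edgeR adjusted p of 1 for Krt19 and for Msln.

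**Figure D2:**
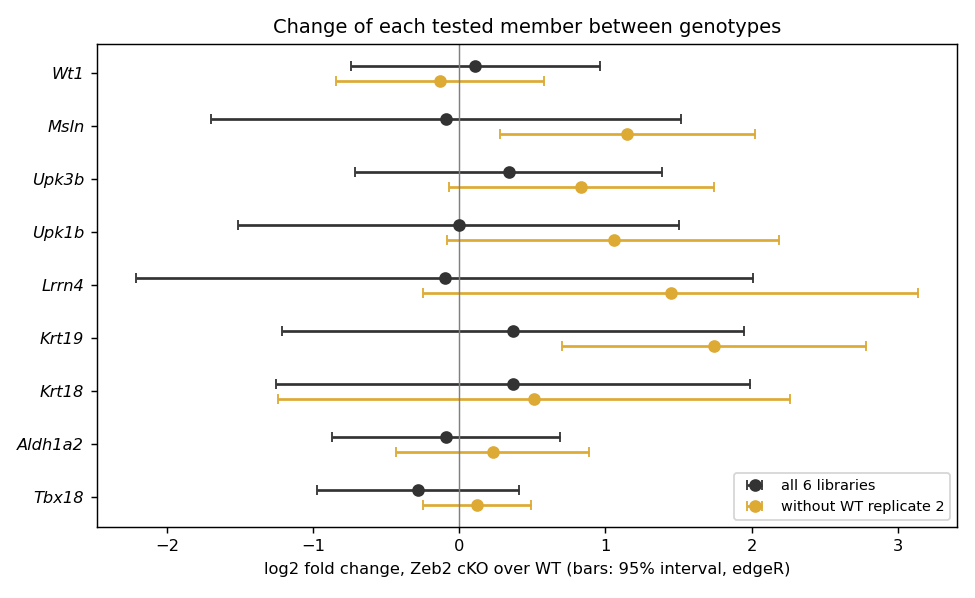
Log2 fold change, Zeb2 cKO over WT, of the 9 members tested (points, with 95% intervals from edgeR as bars) with all 6 libraries in black and without WT replicate 2 in yellow. With all 6 libraries each interval holds 0. Without WT replicate 2 the intervals of Msln and Krt19 lie above 0, at 0.28 to 2.02 and 0.70 to 2.78, with no call after adjustment. WT replicate 2 was the highest library in both genes.

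Spread among single libraries was wide in many members. Among the 9 members tested, the highest library exceeded the lowest at least 5-fold in Msln, Lrrn4, Krt19 and Krt18, beside 4.66% of all tested genes. It did so in Krt8 too, which was not among the tested genes. The ratio was 1.86 in Aldh1a2, 2.13 in Tbx18, 2.42 in Wt1, 2.81 in Upk3b and 4.86 in Upk1b. Many of these genes are low, and low genes vary more by counting error. WT replicate 2 was highest in 6 of 10 members, where it was highest in 35.2% of all genes. Krt8 and Krt18 were highest in Zeb2 cKO replicate 3, Upk3b in Zeb2 cKO replicate 2 and Wt1 in WT replicate 1, so no library was highest in all members.

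Per kilobase of exon, Aldh1a2, Krt18 and Tbx18 were the highest members. Aldh1a2 was at 1.37 ± 0.429 CPM per kb (mean ± SD, n = 6), Krt18 at 1.07 ± 0.763 and Tbx18 at 1.02 ± 0.322, followed by Msln at 0.522 ± 0.361, Wt1 at 0.521 ± 0.175 and Upk3b at 0.375 ± 0.162. The lowest were Upk1b at 0.276 ± 0.174 CPM per kb, Lrrn4 at 0.182 ± 0.157, Krt19 at 0.149 ± 0.0890 and Krt8 at 0.0894 ± 0.0809. The ranges of each member and the next in this order overlapped. Within libraries, Tbx18 was above Msln and Upk1b above Lrrn4 in 6 of 6, whereas each other pair of neighbours was ordered this way in 2 to 5 of 6. Set on the longest transcript instead, Wt1 moved from rank 5 to rank 3, at 1.05 CPM per kb.

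**Figure D3:**
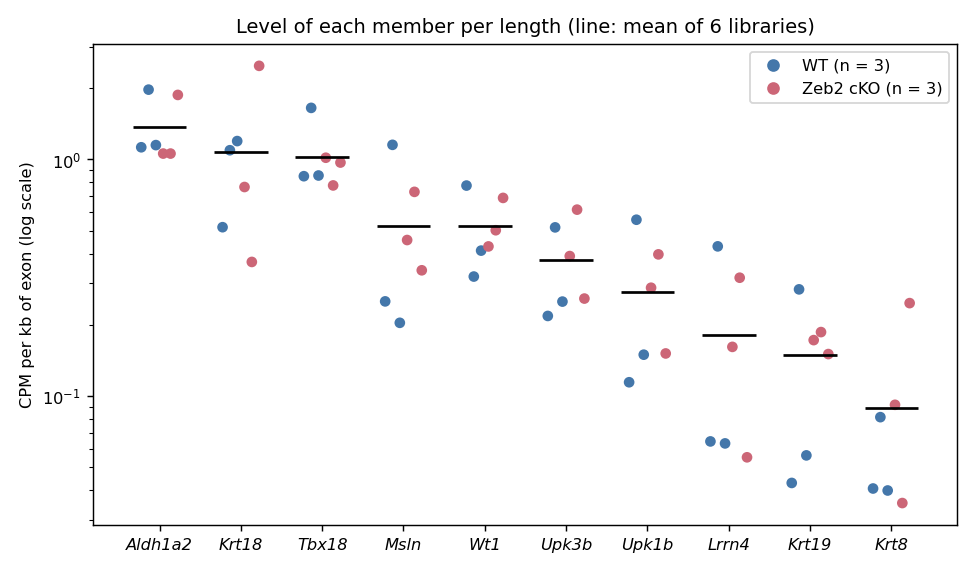
Level of each member per kilobase of exon in each library (points, WT in blue and Zeb2 cKO in red), on a log axis in CPM per kb, with the mean of 6 libraries as a line. Means fall from 1.37 for Aldh1a2 to 0.0894 for Krt8, and the points of neighbouring genes overlap.

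Other genes of mesothelium were compared as a list of 15 genes, 14 of which were in the table and 9 were tested. Of these, 7 had a log2 fold change under -0.2 beside 22.6% of all genes, 0 had one over 0.2 beside 15.9%, 0 passed the adjusted p and the median was -0.57, which became 0.24 without WT replicate 2. WT replicate 2 was highest in 8 of the 9. The 3 libraries that led in Msln were the 3 highest in 3 of the 9. Of the summed CPM of the list, the libraries held 9.11%, 35.1% and 13.8% in WT and 14.4%, 15.7% and 11.8% in Zeb2 cKO hearts. Pkhd1l1, the most abundant of them with Aldh1a1 and Sema3d, was at 7.99, 23.0 and 10.7 CPM in WT and at 14.1, 17.6 and 8.26 CPM in Zeb2 cKO hearts, the same 3 libraries leading as for Msln. Sema3d, a secreted semaphorin, was at 3.40, 24.1 and 6.07 CPM in WT and between 4.42 and 5.62 CPM in Zeb2 cKO hearts, so WT replicate 2 alone was high. Aldh1a1, a retinaldehyde dehydrogenase also used in fibroblasts, was at 6.00, 27.1 and 10.6 CPM in WT and between 9.31 and 10.7 CPM in Zeb2 cKO hearts, again with WT replicate 2 alone high.

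Of 9 epicardial and cardiac mesoderm transcription factors, all were tested, 4 had a log2 fold change under -0.2, 1 had one over 0.2 (22.6% and 15.9% of all genes) and 0 passed the adjusted p. Tbx20 had a log2 fold change of -0.29, Gata4 of 0.047 and Gata6 of -0.17, which became -0.14, -0.12 and -0.16 without WT replicate 2. In Gata6 all Zeb2 cKO libraries (18.5 to 19.7 CPM) lay below all WT libraries (20.8 to 21.9 CPM), as in 2.97% of all tested genes. Of 18 genes of retinoic acid uptake, synthesis, breakdown and reception, 12 were tested, 2 had a log2 fold change under -0.2, 3 had one over 0.2 (again 22.6% and 15.9% of all genes) and 0 passed the adjusted p. The most abundant were Dhrs3, a retinaldehyde reductase, with a log2 fold change of -0.093, and the receptors Rxra with 0.055 and Rxrg with 0.35. Without WT replicate 2 these became 0.068, -0.063 and 0.081. Rarb, a retinoic acid receptor named after its values had been seen, was at 7.41, 5.15 and 7.45 CPM in WT and at 13.8, 8.27 and 7.61 CPM in Zeb2 cKO hearts. All Zeb2 cKO libraries lay above all WT libraries, as in 3.39% of all tested genes. The log2 fold change of Rarb was 0.57 (edgeR adjusted p = 0.957), or 0.42 without WT replicate 2. Stra6, Rbp4 and Cyp26c1 of the same list went the other way without overlap. They held 20, 58 and 34 counts over 6 libraries and were not tested.

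Most genes of epithelia other than mesothelium held few counts. Of 15 other epithelial genes, only Dsp and Pkp2, desmosome genes that cardiomyocytes use too, and Krt80 were tested, and the median of these 3 was 0.065. Krt80 held 226 counts over 6 libraries, at a mean of 0.838 CPM. That was above the means of Lrrn4 (0.675), Upk1b (0.577) and Krt19 (0.275), and the source of Krt80 was not tested. Krt5, Krt15 and Esrp1 were at 0 counts in all 6 libraries, and Epcam, a surface protein of most epithelia but not of mesothelium, held 5 counts in all. Of 6 lung genes 0 were tested, Sftpb and Sftpd were at 0 counts in each library, and the list summed to 5 to 14 counts per library, nearly all of them from Ager.

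**Figure D4:**
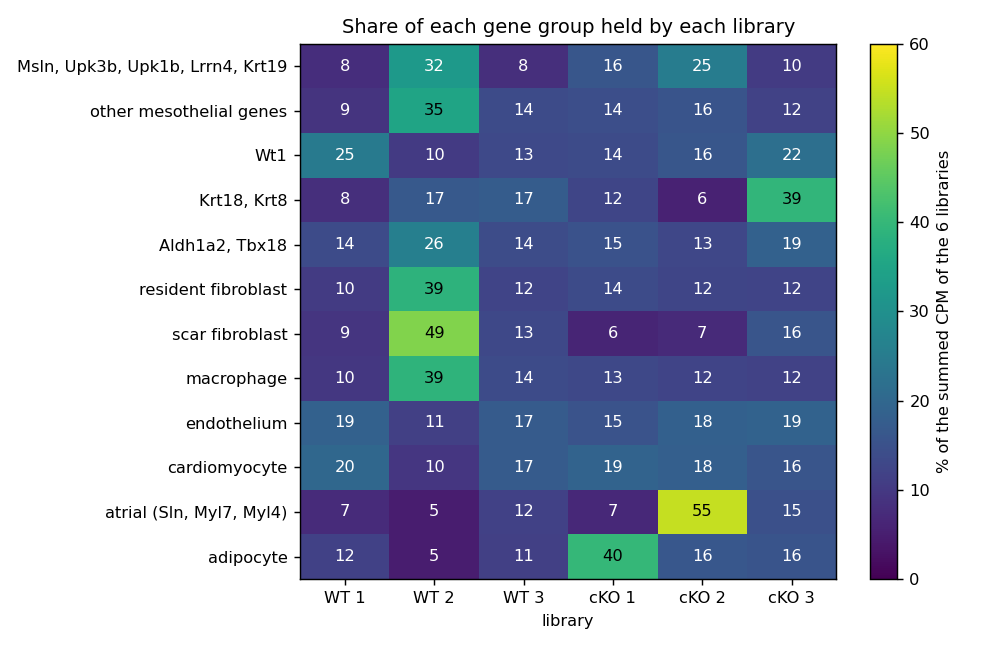
Share of each gene group's summed CPM held by each of the 6 libraries, in percent, so each line adds to 100; colour and printed number give the same value. Msln, Upk3b, Upk1b, Lrrn4 and Krt19 led in WT replicate 2 (32.3%) and Zeb2 cKO replicate 2 (25.3%), fibroblast and macrophage lists led in WT replicate 2 alone (38.8% to 48.5%), the 3 atrial genes Sln, Myl7 and Myl4 in Zeb2 cKO replicate 2 (54.6%) and adipocyte genes in Zeb2 cKO replicate 1 (40.0%).

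The libraries that led in Msln, Upk3b, Upk1b, Lrrn4 and Krt19 also led in genes of other cell types. WT replicate 2 held 38.8% of the summed CPM of 10 resident fibroblast genes, 48.5% of 8 scar fibroblast genes and 39.1% of 10 macrophage genes, and it was highest in each gene of these lists. In the other libraries the shares were 10.5% to 13.8%, 6.29% to 15.9% and 9.81% to 13.8%. The same library held the smallest share of 8 cardiomyocyte genes, 9.59% beside 15.9% to 20% elsewhere. No list passed the adjusted p in any gene, and the medians of resident fibroblast, scar fibroblast and macrophage genes went from -0.69, -1.41 and -0.86 to 0.14, -0.049 and 0.029 without this library.

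Zeb2 cKO replicate 2, next after WT replicate 2 in Msln, Upk1b, Lrrn4 and Krt19, held 7.09% to 12.4% of the fibroblast and macrophage lists and 54.6% of 3 atrial genes, Sln, Myl7 and Myl4. Myl7, the atrial myosin light chain, was at 0.717, 0.114 and 0.911 CPM in WT and at 0.540, 7.26 and 1.23 CPM in Zeb2 cKO hearts, with 315 counts in Zeb2 cKO replicate 2 and 66 or fewer in any other library. Of the 5 atrial genes Bmp10 was at 0 counts in all libraries, and Nppa, which ventricles also turn on under stress, followed another order, with WT replicate 2 highest at 716 CPM and Zeb2 cKO replicate 2 lowest at 131 CPM. With Nppa included, the atrial list summed to 718 CPM in WT replicate 2, its highest, and to 149 CPM in Zeb2 cKO replicate 2, its lowest. The 3 atrial genes were set apart from Nppa, and Myl7 was named, after their values had been seen. Zeb2 cKO replicate 1, the third library in the 5 mesothelial genes, held 40.0% of the summed CPM of 8 adipocyte genes. The adipocyte genes were low, at 186 counts together in that library and 20 to 78 in the others. The part of these tissues in the levels of the members was not tested.

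Zeb2 cKO replicate 3, highest in Krt8 and Krt18, held 15.9% of the scar fibroblast genes, the second share after WT replicate 2, and 14.6% of Sln, Myl7 and Myl4 together and 15.6% of the adipocyte genes. It held 10.3% of the 5 mesothelial genes, less than the share of either other Zeb2 cKO library. Their part in the level of the keratins was not tested.

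Genes whose pattern over the 6 libraries was most like that of Wt1, Msln, Upk3b, Upk1b, Lrrn4 and Krt19 together were ranked by Pearson's r of log2 CPM with the mean of the standardized members, over 14737 genes. The closest were ENSMUSG00000092076 (r = 0.994), Triap1 (0.992), Gm20689 (0.987), Caml (0.981), Lsm10 (0.978), 3110009E18Rik (0.975), Mir99ahg (0.973), Nelfa (0.969), Cdk4 (0.969) and Mfsd9 (0.968). None of them was on the list of other mesothelial genes, and their highest library exceeded their lowest 1.11-fold to 2.96-fold, less than in Msln. At n = 6 libraries that share a genotype in groups of 3, 92 genes (0.624%) reached an r of 0.9, and leaving out WT replicate 2 kept 2 of the 10 closest. Among genes of related lists, named after their ranks had been seen, Cyp26b1, which breaks down retinoic acid, ranked 56 (r = 0.923), Pkhd1l1 132 (0.877) and Bnc1, a transcription factor of mesothelium, 178 (0.857). Others of the same lists ranked low, among them Cldn15 of the mesothelial list at 13433 (r = -0.655) and Rxrb of the retinoic acid list at 12268 (-0.532).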

How the data were processed

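RNA-seq libraries of 3 WT and 3 Zeb2 cKO hearts were assigned to genotype and replicate from the sample labels, each from a separate mouse. Per the methods, the authors made strand-specific libraries after ribosomal depletion, sequenced single-end reads of 75 bases and aligned and counted them per gene of Gencode M4 (GRCm38) with STAR. They deposited raw counts without normalization. The STAR version and the handling of reads mapping to several places are not given in the sources used here. The number of count columns left unmatched was 0.

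The 10 members and all gene lists were chosen with earlier results of these data known. Counts were scaled by TMM and filtered by filterByExpr with its defaults in edgeR 4.0.16 (R 4.3.3), then tested with glmQLFit and glmQLFTest on genotype. The prior count for fold changes was 0.125. Benjamini-Hochberg adjustment covered all 14746 genes kept, with a threshold of 0.05. The cutoff of 0.2 on the log2 scale is the one the study used. The common biological coefficient of variation was 0.243. Symbols, coordinates and lengths came from Gencode M21 of the same build. DESeq2 1.42.0 and limma 3.58.1 were also used, near-identical transcripts were searched with BLAST 2.17.0 (at least 75 bases and 95% identity), and figures were drawn with Python 3.11.15 and matplotlib 3.10.9. The fit was tested on simulated data. Poisson intervals cover counting error only.

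All members were named, the 3 genes of highest mean CPM of each related list were eligible, and of these only lists that bear on the members are named by gene. The 10 most similar genes were named by r. Alternatives covered scaling, the filter, DESeq2, robust dispersions, a replicate block, removal of mitochondrially encoded genes, transcript length and each library left out. Likeness and non-overlap without WT replicate 2 and the length of the longest transcript were chosen after seeing the data.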

Additional observations from a re-analysis of the deposited data

How the results depend on the processing

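Members past the adjusted p stayed at 0 under all alternatives run. The count of members under a log2 fold change of -0.2 (1 of 9) ranged from 0 to 5 with each library left out in turn, the count over 0.2 (3 of 9) from 1 to 7, and the median (-0.0035) from -0.23 to 0.83, the last without WT replicate 2. Leaving out WT replicate 1 or WT replicate 3 gave 5 members under -0.2 and 1 over 0.2, and leaving out Zeb2 cKO replicate 2 or 3 gave 3 under -0.2. With each library left out, the log2 fold change ranged from -0.13 to 0.56 in Wt1, -0.48 to 1.15 in Msln, -0.022 to 0.83 in Upk3b, -0.36 to 1.06 in Upk1b, -0.80 to 1.45 in Lrrn4, -0.025 to 1.74 in Krt19, -0.72 to 0.80 in Krt18, -0.42 to 0.23 in Aldh1a2 and -0.44 to 0.12 in Tbx18. Each of these ranges holds 0. Upk1b, at -0.0035, turned to 0.018 without the filter on low counts and to 0.012 with DESeq2. Without the filter, 7350 genes lay under -0.2 and 6797 over 0.2.

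Replicate numbers occur in both groups but name different mice, and deviations from the group means correlated at 0.0878, -0.137 and -0.0869 for numbers 1, 2 and 3, so the numbers were not taken as pairs. With the replicate number as a block, 0 members were called, Msln turned to 0.26, Upk1b to 0.21 and Lrrn4 to 0.16, and the median was 0.18. DESeq2 size factors, robust dispersions and the removal of mitochondrially encoded genes turned no member. Krt8 and Krt19 rest on 51 and 76 counts over 6 libraries, and changes in them were not detectable unless large. The SE of Krt19 was 0.67, close to the 0.68 of Msln from 431 counts, and the part of depth in it was not tested. The cause of these shifts was not tested.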
